A study of Mus musculus with 28 samples.

Results

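Resting wild-type calf muscle is represented by 7 of the 28 samples of the series, those whose titles name wild type at rest. Each was the gastrocnemius, plantaris and soleus of a mouse on the FVB strain background, labelled wild type, female and 4 months old, and was taken with no contraction. The other 21 samples were wild-type muscle after 15 min of contraction evoked in situ, or muscle lacking LKB1, with or without that contraction, and were not analysed here. One bead array was hybridised per sample, with 25697 probes. Of these probes, 23978 had 1 gene symbol in the platform annotation, 0 had several and 1719 had none, and 443 of the unnamed probes were detected on all 7 arrays. The named probes stood for 16593 genes, each represented by the probe with the highest mean intensity over the 7 arrays. All 7 samples and 16593 genes were described, and no groups were compared.

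The calf of the mouse is a mixed hindlimb muscle group, with mainly fast glycolytic fibres in the gastrocnemius and plantaris and many slow oxidative fibres in the soleus. A muscle fibre is a large multinucleated cell filled with sarcomeres, in which myosin thick filaments pull on actin thin filaments when calcium leaves the sarcoplasmic reticulum. ATP for this work comes from creatine phosphate, glycolysis and mitochondrial respiration, and endothelial cells, fibroblasts, nerve, blood cells and muscle stem cells lie between the fibres. In whole tissue, fewer cells of a type and less RNA per cell cannot be told apart.

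Values are normalized intensities on a linear scale from which a background had been subtracted, so that dim probes lie around 0. The brightness of a probe also depends on how well its sequence binds, so a rank orders probes by brightness and not transcripts by number, and no ratio between genes is given. A probe was called detected on an array where its detection p, which sets it against the negative control beads of that array, was under 0.05. The median intensity at that threshold, pooled over the 7 arrays, was 24.5, called the dim limit here. The threshold itself differed between arrays. Tnni3, the cardiac troponin I, was not detected at 32.6 in sample 2, whereas Uty of the Y chromosome was at 23.4 in sample 6. The 7 arrays had nearly the same distribution of values, with the same highest value of 50215 on each, so an intensity here is close to a rank within its array.

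Mean non-normalized intensity per array ranged from 201 in sample 2 to 446 in sample 3, and between 36.0% and 43.1% of the probes of an array were detected. Sample 2 also had the lowest share of detected probes, and 487 genes were missed on that array alone, against 12 to 94 on the other arrays. Pearson correlations of log2 intensity between arrays, over the 6084 genes detected on all of them, lay between 0.934 for samples 2 and 5 and 0.986 for samples 1 and 3. The labels do not say whether the 7 samples came from separate animals, so the spread between them may be partly technical.

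Samples 4 and 5 went against their label for sex. Xist, the RNA that coats the inactive X chromosome of female cells, was at 10.4 in sample 4 and -2.39 in sample 5, not detected on either, against 78.7 to 160.0 on the other 5 arrays, where it was detected. Its second probe read -4.04 and -0.865 in samples 4 and 5, against 69.4 to 105.8 on the others. Eif2s3y, a translation initiation factor subunit on the Y chromosome, was detected in samples 4 and 5 alone, at 108.4 and 83.7, against -11.9 to 2.11 elsewhere. Its X-linked partner Eif2s3x was at 332 and 274 in samples 4 and 5, against 592 to 751 elsewhere. Kdm6a, an X-linked histone demethylase, was at 809 and 593, against 1266 to 1551. None of the ranges overlapped. The other 15 of 16 named probes of the Y chromosome were not detected in samples 4 and 5. Of these, Gm20736 was detected in sample 2 alone, at 71.7, and Uty in sample 6 alone, at 23.4, and none was detected in samples 1, 3 and 7. The labelled genotype could not be checked within 1 group. Stk11, which encodes LKB1, was detected on all 7 arrays at 1213 ± 181 (SD, n = 7). Counts over all genes, spans of marker lists and SDs of genes high in samples 4 or 5 are given with and without both.

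Of the 16593 genes, 6084 (36.7%) were detected on all 7 arrays, 7272 (43.8%) on none and 3237 (19.5%) on 1 to 6 arrays. Without samples 4 and 5, 6220 genes were detected on all 5 remaining arrays and 7616 on none. Intensity was held by few probes. The 10 brightest genes carried 4.92% of the summed mean intensity, the 100 brightest 28.6% and the 1000 brightest 72.8%. Nme2, a nucleoside diphosphate kinase, stood at rank 100 with 13767 ± 2006, and Lemd2, an inner nuclear membrane protein, at rank 1000 with 1868 ± 268 (SD, n = 7). The median gene had a mean of 18.8, below the dim limit. Of the 100 brightest genes, 97 kept that place without samples 4 and 5.

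**Figure D1:**
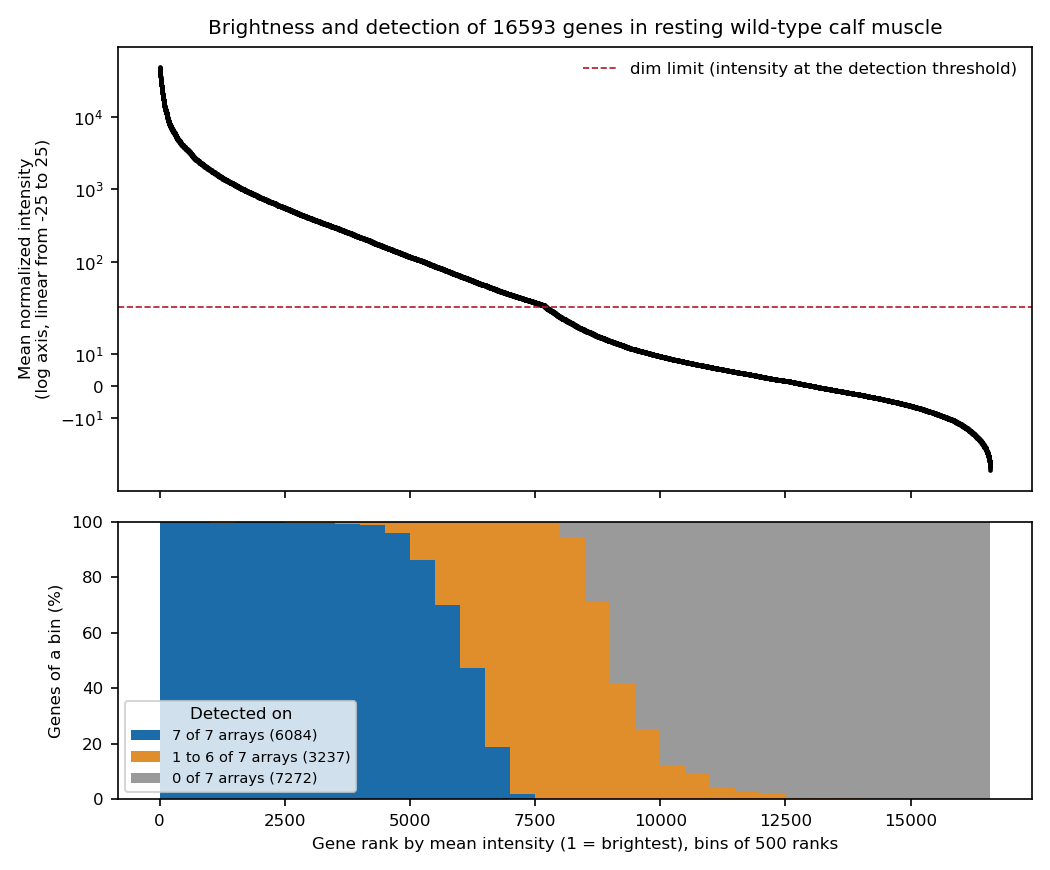
Upper panel: mean normalized intensity of each of 16593 genes over 7 arrays (symmetric log axis, linear from -25 to 25) against brightness rank, with the dim limit of 24.5 dashed. Lower panel: share of genes in bins of 500 ranks detected on 7 of 7 arrays (6084 genes), 1 to 6 (3237) or 0 (7272). The brightest 1000 genes were detected on all arrays, and the 3 classes mix where the curve crosses the dim limit.

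The 10 brightest genes came from energy metabolism, the sarcomere, calcium buffering, chaperoning and blood. Atp5b, the catalytic beta subunit of ATP synthase, was first with 44032 at the lowest, 48716 at the median and 50215 at the highest. Mylpf, the fast-fibre regulatory myosin light chain, had 41708 at the lowest, 48716 at the median and 48716 at the highest. Hspb6, a small heat shock protein of muscle, had 38955 at the lowest, 46955 at the median and 50215 at the highest. These 3 ranges overlapped, as did those of all neighbours in the first 10 ranks, so their order is not fixed by these arrays. The next were Eno3, the muscle enolase (44419 ± 2289), Gapdh, the glycolytic dehydrogenase (43370 ± 1406), Pvalb, the calcium buffer of fast fibres (43205 ± 4038), and Myl3, the slow-fibre essential light chain (42417 ± 3729, SD, n = 7). Hba-a1, an alpha-globin of red blood cells, followed with 34786 at the lowest, 41708 at the median and 46955 at the highest; whether its probe also reads the near-identical copy of the gene was not checked. Tcap, the titin cap of the Z-disc, and Acta1, skeletal actin, closed the first 10 at 42163 ± 2657 and 41812 ± 3123 (SD, n = 7). Ranks 11 to 30 held 8 further sarcomere genes (Myl1, Tnnc2, Myl2, Tnnt1, Actn3, Tpm2, Ttn and Tnni2) and 5 mitochondrial respiratory genes (Uqcr10, Cox6a2, Atp5g3, Cox6b1 and Atp5j2). They also held Ckm, Atp2a1, Pfkm, Tpi1, Rplp1, Fth1, the ferritin heavy chain, and Fhl1, a LIM-domain protein. Of the 100 brightest genes, 85 belonged to at least 1 of the 57 gene lists described below.

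In the thick filament list, 13 of 16 measured genes were detected on all arrays, against 36.7% of all genes. The 4 light chains Mylpf, Myl3, Myl1 and Myl2 all ranked in the first 14. Among the heavy chains, the motors themselves, Myh4 of the fastest fibres had 3872 at the lowest, 5191 at the median and 6936 at the highest. Myh7 of slow fibres had 573 at the lowest, 1962 at the median and 2504 at the highest. Myh1, another fast heavy chain, averaged 953 ± 316, and Myh8, the perinatal form, 418 ± 176 (SD, n = 7). The probe for the perinatal heavy chain was thus detected on 7 of 7 arrays in adult muscle, as was that for Myl4, a light chain of atrium and embryonic muscle, at 1937 ± 618. Whether the probes of Myh8 and the other heavy chains read only their own gene was not checked. Mybpc1 and Mybpc2, the slow and fast myosin-binding proteins C, were at 5140 ± 1431 and 3441 ± 559, whereas the cardiac form Mybpc3 was detected on 0 arrays (-1.66 to 20.3).

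Of the thin filament genes, 12 of 15 were detected on all arrays, against 36.7% of all genes, and 8 of them ranked among the 100 brightest. Acta1 had 38240 at the lowest, 41185 at the median and 46955 at the highest, and the fast troponin C gene Tnnc2 had 35350 at the lowest, 39767 at the median and 46955 at the highest. Troponin senses calcium on the filament, and its slow and fast subunits were both bright: Tnnt1, the slow troponin T, had 27002 at the lowest, 37646 at the median and 45973 at the highest, and Tnni2, the fast troponin I, had 23718 at the lowest, 28534 at the median and 37073 at the highest. Tmod4, which caps the pointed ends of actin in skeletal muscle, averaged 23732 ± 2332. Lmod2, an actin nucleator best known from heart, and Tnni3, the cardiac troponin I, were detected on 0 arrays. The Z-disc and M-band list held 21 of 23 genes detected on all arrays. Ttn, which encodes the elastic protein titin, had 19861 at the lowest, 32804 at the median and 35350 at the highest, with sample 5 lowest. Actn3, the fast-fibre alpha-actinin, averaged 36427 ± 2590, Actn2 20857 ± 3903, and Pdlim3, an actinin-binding LIM protein, 16207 ± 2938 (SD, n = 7). Myom2, an M-band protein of fast fibres, was the dimmest, at -16.6 to 6.32 and detected on 0 arrays, so a probe that is not detected does not show that its transcript was absent.

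Calcium release and reuptake genes were detected on all arrays in 20 of 22 cases, against 36.7% of all genes. Pvalb had 39767 at the lowest, 40488 at the median and 50215 at the highest, with sample 2 highest. Atp2a1, the fast-fibre calcium pump of the sarcoplasmic reticulum, had 34786 at the lowest, 36446 at the median and 40488 at the highest. Atp2a2, the pump of slow fibres and heart, had 13888 at the lowest, 20901 at the median and 24956 at the highest, with sample 5 lowest. Hrc, a calcium-binding protein of the reticulum lumen, averaged 18221 ± 1772, and Ryr1, the calcium release channel of skeletal muscle, 17655 ± 4089. Pln, the inhibitor of the slow-fibre pump, and Trdn, which anchors the release channel, were detected on 0 arrays.

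Promoter windows are shown for 4 bright contractile and calcium genes, picked because they held letters searched for, and for Atp5b, the brightest respiratory gene. All of these genes ranked among the 30 brightest. Windows ran from 250 bases before to 50 bases after the gene start in RefSeq (GRCm38.p6), and 13335 of the 16593 genes had one. The letters searched were TATAAA at 40 to 16 bases before the start on the gene's strand, TATAAA anywhere, CAGCTG (an E-box, the binding letters of MyoD-type factors), and the CArG box and the MEF2 site, known binding motifs of SRF and of MEF2 factors, the last 4 on both strands. Of 18 contractile and calcium genes among the 100 brightest that had a window, 5 held TATAAA at the stated distance, a CArG box or a MEF2 site, and 13 held none of them. CAGCTG stood in 9 of the 18. The windows of the 4 brightest of those 5 genes are printed, the other being Ttn. The 250 bases before the start are given on the gene's strand, with TATAAA at the stated distance, CArG box, MEF2 and CAGCTG letters in capitals.
Pvalb, chr15:78206401-78206650, minus strand: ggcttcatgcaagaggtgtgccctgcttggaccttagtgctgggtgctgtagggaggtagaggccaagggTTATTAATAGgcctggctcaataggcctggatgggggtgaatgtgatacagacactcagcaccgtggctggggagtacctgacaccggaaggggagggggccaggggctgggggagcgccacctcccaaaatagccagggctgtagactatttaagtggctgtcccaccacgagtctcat
Myl3, chr9:110763428-110763677, plus strand: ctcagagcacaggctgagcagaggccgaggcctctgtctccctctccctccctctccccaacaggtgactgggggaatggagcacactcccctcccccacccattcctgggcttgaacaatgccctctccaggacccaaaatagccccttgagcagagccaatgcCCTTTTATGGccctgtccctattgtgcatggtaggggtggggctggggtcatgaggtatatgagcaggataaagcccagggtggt
Acta1, chr8:123894776-123895025, minus strand: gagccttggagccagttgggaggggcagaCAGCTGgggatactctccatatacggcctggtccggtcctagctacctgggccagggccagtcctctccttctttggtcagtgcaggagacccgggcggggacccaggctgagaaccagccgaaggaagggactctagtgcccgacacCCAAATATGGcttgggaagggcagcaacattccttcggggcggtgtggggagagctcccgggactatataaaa
Tnnt1, chr7:4515976-4516225, minus strand: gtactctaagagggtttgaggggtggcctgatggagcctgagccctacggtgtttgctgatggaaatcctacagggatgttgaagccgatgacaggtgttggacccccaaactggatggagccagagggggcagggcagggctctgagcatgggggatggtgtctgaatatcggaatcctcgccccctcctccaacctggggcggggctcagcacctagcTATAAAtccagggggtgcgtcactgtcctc
Atp5b, chr10:128083057-128083306, plus strand: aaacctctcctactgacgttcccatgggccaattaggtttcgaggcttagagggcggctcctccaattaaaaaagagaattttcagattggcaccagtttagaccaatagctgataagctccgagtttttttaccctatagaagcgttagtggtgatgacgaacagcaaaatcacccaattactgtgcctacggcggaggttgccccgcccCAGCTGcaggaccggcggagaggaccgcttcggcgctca

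The Pvalb window held a MEF2 match starting 180 bases before the start, those of Myl3 and Acta1 a CArG match at 85 and 73 bases before it, and that of Tnnt1 the TATAAA letters at 30 bases before it. In Acta1 the TATAAA letters began 7 bases before the annotated start, outside the searched stretch. The Acta1 window also held CAGCTG at 221 bases before the start. The Atp5b window held CAGCTG at 39 bases before the start and no TATAAA, CArG or MEF2 letters. Of 49 contractile and calcium genes that were detected on all arrays and had a window, 5 (10.2%) held TATAAA at the stated distance, 5 (10.2%) a CArG box, 9 (18.4%) a MEF2 site and 34.7% CAGCTG. Over all 13335 windows these shares were 2.72%, 1.43%, 2.77% and 15.3%. The 59 respiratory chain windows and the 45 ribosomal protein windows held 0 of the first 3 motifs, and CAGCTG in 10.2% and 4.44%. TATAAA anywhere stood in 20.4% of the contractile and calcium windows and 12.7% of all windows. Among the 81 windows of the 100 brightest genes, 1 (1.23%, Tnnt1) held TATAAA at the stated distance, 6.17% a CArG box, 3.7% a MEF2 site, 27.2% CAGCTG and 8.64% TATAAA anywhere. Of 893 olfactory receptor windows, whose median GC content was 35.0% against 57.7% over all windows, 1.34% held TATAAA at the stated distance, 1.79% a CArG box, 11.8% a MEF2 site, 8.17% CAGCTG and 41.0% TATAAA anywhere. These shares were above those over all windows for the MEF2 site, TATAAA anywhere and, slightly, the CArG box, and below them for CAGCTG and TATAAA at the stated distance. Some motifs overlap in letters, all are short, and a match is a description of the window.

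Glycolysis, which turns glucose to lactate, had 11 of 13 genes detected on all arrays, against 36.7% of all genes. Its median brightness percentile was 99.6, where 100 is the brightest. Eno3 had 41708 at the lowest, 44032 at the median and 48716 at the highest, and Gapdh 41185 at the lowest, 43479 at the median and 45973 at the highest. Pfkm, the muscle phosphofructokinase, averaged 37136 ± 4613, Tpi1, triose phosphate isomerase, 32264 ± 1845, and Ldha, lactate dehydrogenase A, 27947 ± 4103 (SD, n = 7). Pgk1, an enzyme of the same path that every cell uses, was detected on 0 arrays (-15.8 to 5.35). In glycogen metabolism 13 of 15 genes were detected on all arrays. Ppp1r3c, a glycogen-targeting subunit of protein phosphatase 1, had 15116 at the lowest, 19383 at the median and 31036 at the highest, and Pygm, the muscle glycogen phosphorylase, 6810 at the lowest, 8030 at the median and 9646 at the highest. Ppp1r3a, the phosphatase subunit known from skeletal muscle, was detected on 0 arrays. Creatine kinase, adenylate kinase and purine cycle genes were detected on all arrays in 10 of 14 cases, led by Ckm (40946 ± 2293), Adssl1 (28258 ± 1357), Ckmt2 (25992 ± 2321) and Ampd1 (23562 ± 3216), which act on the ATP and AMP pools of working fibres.

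Mitochondrial energy genes were detected nearly throughout, whereas 36.7% of all genes were detected on all arrays. Of NADH dehydrogenase (complex I) genes 30 of 33 were detected on all arrays, of complexes II to IV 21 of 25, and of ATP synthase and carriers 20 of 21, with median percentiles of 99.1, 99.3 and 96.7. Together they supplied 25 of the 100 brightest genes. Ndufs6, a complex I subunit, had 24956 at the lowest, 27783 at the median and 32414 at the highest. Uqcr10 of complex III had 32082 at the lowest, 32804 at the median and 35821 at the highest, and Cox6a2, the muscle form of a cytochrome oxidase subunit, 28773 at the lowest, 33168 at the median and 38240 at the highest. The subunits are needed in fixed numbers in the complexes, yet probes of 1 complex spanned the whole scale: the core subunit Ndufs1 was detected on 0 arrays (-5.57 to 4.55), as were Uqcrfs1 and Atp5k. The citric acid cycle list had 20 of 23 genes detected on all arrays, with Got2, the mitochondrial aspartate aminotransferase, at 19414 ± 2114 and Idh3g, an isocitrate dehydrogenase subunit, at 14676 ± 951. For fatty acid use the count was 19 of 22. Lpl, the lipase that frees fatty acids at the capillary wall, averaged 19084 ± 1393, and Cd36, the fatty acid transporter, was detected on 0 arrays. Mb, the oxygen store myoglobin, had 11709 at the lowest, 17348 at the median and 22902 at the highest.

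**Figure D2:**
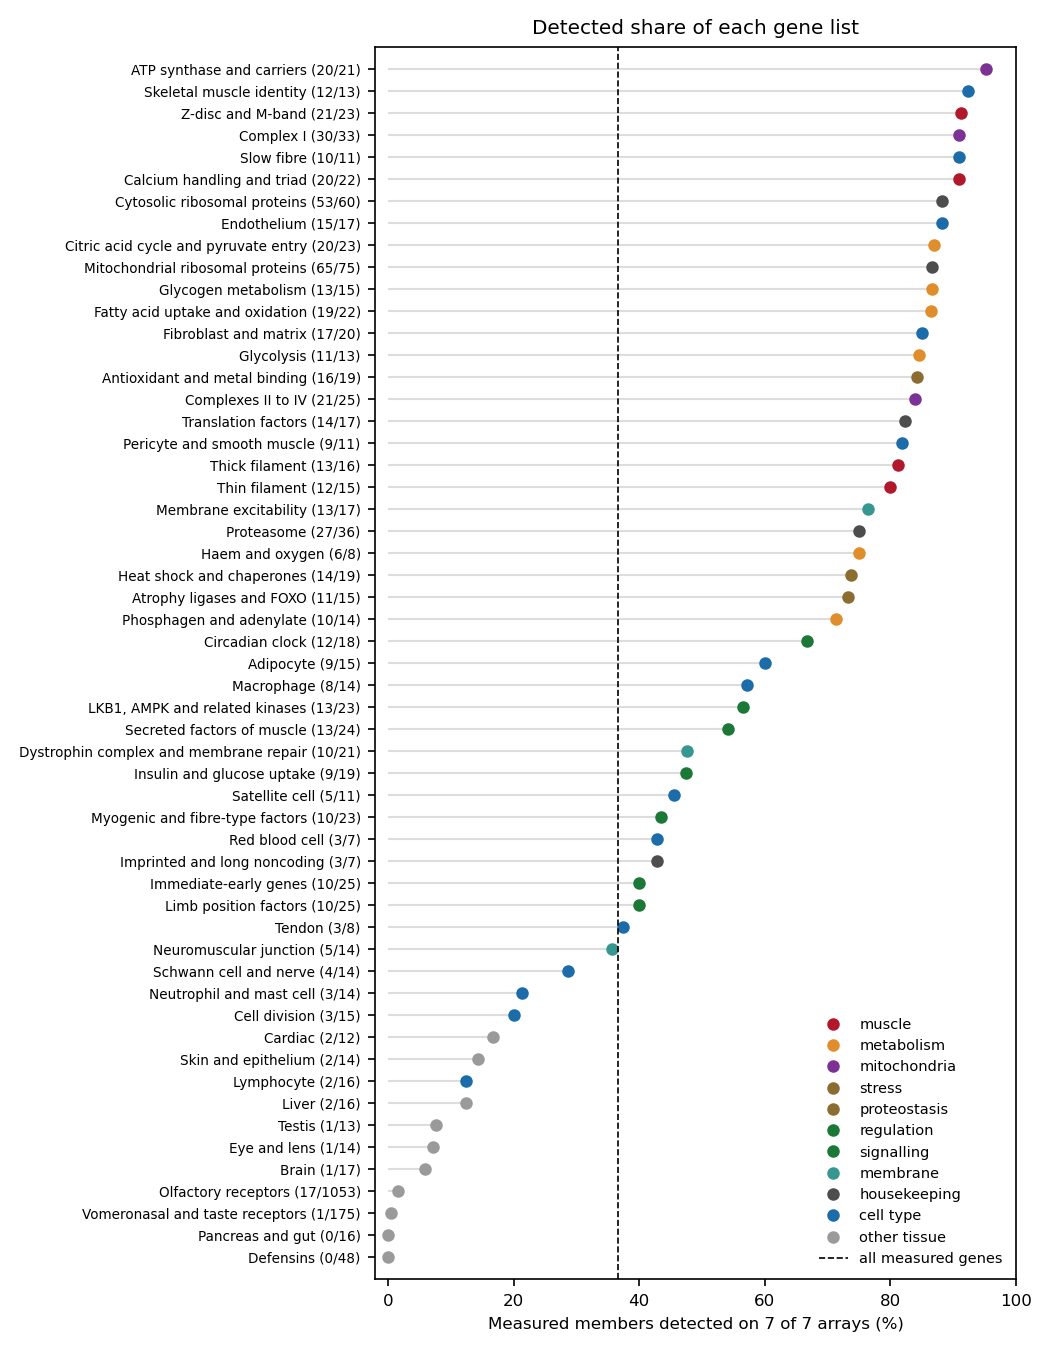
Share of measured genes detected on 7 of 7 arrays for each list (points, coloured by kind of list, with the counts in parentheses), and the 36.7% of all measured genes (dashed line). ATP synthase and carriers lead with 20 of 21 genes, muscle and mitochondrial lists lie far to the right, and the pancreas and gut, and defensin lists have 0 genes.

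Of 60 cytosolic ribosomal proteins, 53 were detected on all arrays, against 36.7% of all genes, and 11 ranked among the 100 brightest. Rplp1, a stalk protein of the large subunit, had 29374 at the lowest, 36446 at the median and 43479 at the highest. Rpl3l, a muscle-restricted relative of Rpl3, had 23297 at the lowest, 26188 at the median and 31393 at the highest, at rank 41. Summed ribosomal intensity was 555170 and 563960 in samples 4 and 5, against 410640 to 489630 in the other samples, so the ranges did not overlap. Lymphocyte markers and the sex-linked genes above moved with the same 2 samples, and their part in this difference was not tested. Mitochondrial ribosomal proteins were detected on all arrays in 65 of 75 cases and the proteasome in 27 of 36. Translation factors had 14 of 17, with Eef1a2, the elongation factor form of muscle and neurons, at 26341 ± 3424.

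Of antioxidant and metal-binding genes 16 of 19 were detected on all arrays, of heat shock proteins and chaperones 14 of 19 and of atrophy ligases and their FOXO regulators 11 of 15. Over all genes the share was 36.7%. Mt1, a metal-binding metallothionein, had 10088 at the lowest, 17938 at the median and 31036 at the highest. Hspa8, a constitutive heat shock protein, averaged 19245 ± 3513, and Bag3, its partner in clearing damaged sarcomere proteins, 9699 ± 1451 (SD, n = 7). The ubiquitin ligases of muscle atrophy were detected: Fbxo32 (atrogin-1) had 5414 at the lowest, 8030 at the median and 8853 at the highest, and Trim63 (MuRF1) 1903 at the lowest, 3768 at the median and 4351 at the highest. Asb2, a ligase adaptor of muscle, was at 18526 ± 3505. Foxo3 was detected on 0 arrays, and Mstn, the growth inhibitor myostatin, was at -27.4 to -11.1, also on 0 arrays.

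The transcription factor lists lay close to the background share. Of 23 myogenic and fibre-type factors 10 were detected on all arrays, of 25 limb position factors 10 and of 25 immediate-early genes 10, that is 43.5%, 40% and 40% against 36.7% of all genes. Nfix, a nuclear factor of fetal and later muscle, had 4788 at the lowest, 9167 at the median and 9866 at the highest, and Mef2c 6312 at the lowest, 7285 at the median and 10020 at the highest. Esrra, which drives mitochondrial genes, averaged 2330 ± 239, and Myf6, the myogenic factor of adult fibres, 1889 ± 470.5 (SD, n = 7). Myod1, Myf5, Pax7 and Pax3, factors of muscle precursors, were detected on 0 arrays. Among position factors, Hoxc10, a factor of the lumbar and hindlimb level, had 1478 at the lowest, 1637 at the median and 2103 at the highest, and Hoxc9 1022 at the lowest, 1191 at the median and 1702 at the highest. The hindlimb factors Tbx4 and Pitx1 and the forelimb factor Tbx5 were detected on 0 arrays. Among immediate-early genes, Klf9, a glucocorticoid-responsive factor, had 5553 at the lowest, 6164 at the median and 6789 at the highest and Zfp36, which destabilises cytokine mRNAs, 1494 at the lowest, 2291 at the median and 3700 at the highest. Fos averaged 30.0 ± 37.2 and was detected on 2 arrays, and Fosb, Nr4a1 and Myc were detected on 0. Circadian clock genes had 12 of 18, led by Dbp, an output of the clock, at 6682 ± 636. Arntl, which encodes the core activator BMAL1, was detected on 3 arrays (-2.26 to 45.8).

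In the kinase pathway that the series addresses, 13 of 23 genes were detected on all arrays. Prkaa2, the AMPK catalytic subunit of muscle, had 1774 at the lowest, 2964 at the median and 3755 at the highest, and Stradb, a pseudokinase partner of LKB1, 1381 at the lowest, 1967 at the median and 2285 at the highest. Mark2 and Nuak1, kinases activated by LKB1, averaged 2530 ± 843 and 1556 ± 446 (SD, n = 7). Cab39, the third member of the LKB1 complex, was detected on 0 arrays (-2.14 to 12.2), and its relative Cab39l on 7. In the insulin and glucose uptake list, with 9 of 19, Slc2a4, the insulin-responsive glucose transporter, averaged 1811 ± 229. Insr and Akt1 were detected on 0 arrays and Akt2 on 3. Of the secreted factors 13 of 24 were detected on all arrays, with the matrix proteoglycan Dcn at 9291 ± 2425 and the growth factor Vegfb at 4449 ± 689, and Il6 was detected on 1. Neuromuscular junction genes had 5 of 14 (35.7%), close to the 36.7% of all genes, led by the acetylcholine receptor subunit Chrnb1 at 1687 ± 265. In the dystrophin complex list, with 10 of 21, Sgca, a sarcoglycan, averaged 4016 ± 416, while Dmd, which encodes dystrophin itself, was detected on 0 arrays (-5.4 to 15.5).

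Skeletal-muscle or fast-fibre isoforms were set beside the other form of the same protein in 40 pairs, of which 31 had both forms measured. In 19 pairs both forms were detected on all arrays, in 11 the muscle form alone, in 0 the other form alone and in 1 (Chrne and Chrng) neither. The muscle form had the higher brightness percentile in 29 of 31 pairs, the exceptions being Tnnt3 with Tnnt1 and Myl1 with Myl3, in which the other form belongs to slow fibres. In 8 pairs the muscle form was detected on 7 arrays and the other on 0. Thus Ryr1 had 13888 at the lowest, 15469 at the median and 23510 at the highest, and the cardiac Ryr2 ranged over -8.46 to 12.2. Hk2, the hexokinase of muscle, averaged 14631 ± 2076, and Hk1 6.71 ± 4.87. Cpt1b, the muscle gate of fatty acid entry into mitochondria, averaged 3514 ± 583, and the liver form Cpt1a 2.24 ± 4.42. Eef1a2 averaged 26341 ± 3424, and Eef1a1, which nearly all other tissues use, 4.99 ± 7.45 (SD, n = 7 in each). Ryr2, Hk1, Cpt1a and Eef1a1 were each read by 1 probe. Lack of detection by that probe does not show that the transcript was absent. Both forms of some slow and fast pairs were bright. Mylpf and Myl2 averaged 46524 ± 2909 and 40206 ± 3124, and Tnnc2 and Tnnc1 40514 ± 4579 and 28317 ± 4491. The 40 pairs were chosen for known muscle forms, so the direction follows in part from the choice, and 2 probes of different sequence are set side by side in each.

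**Figure D3:**
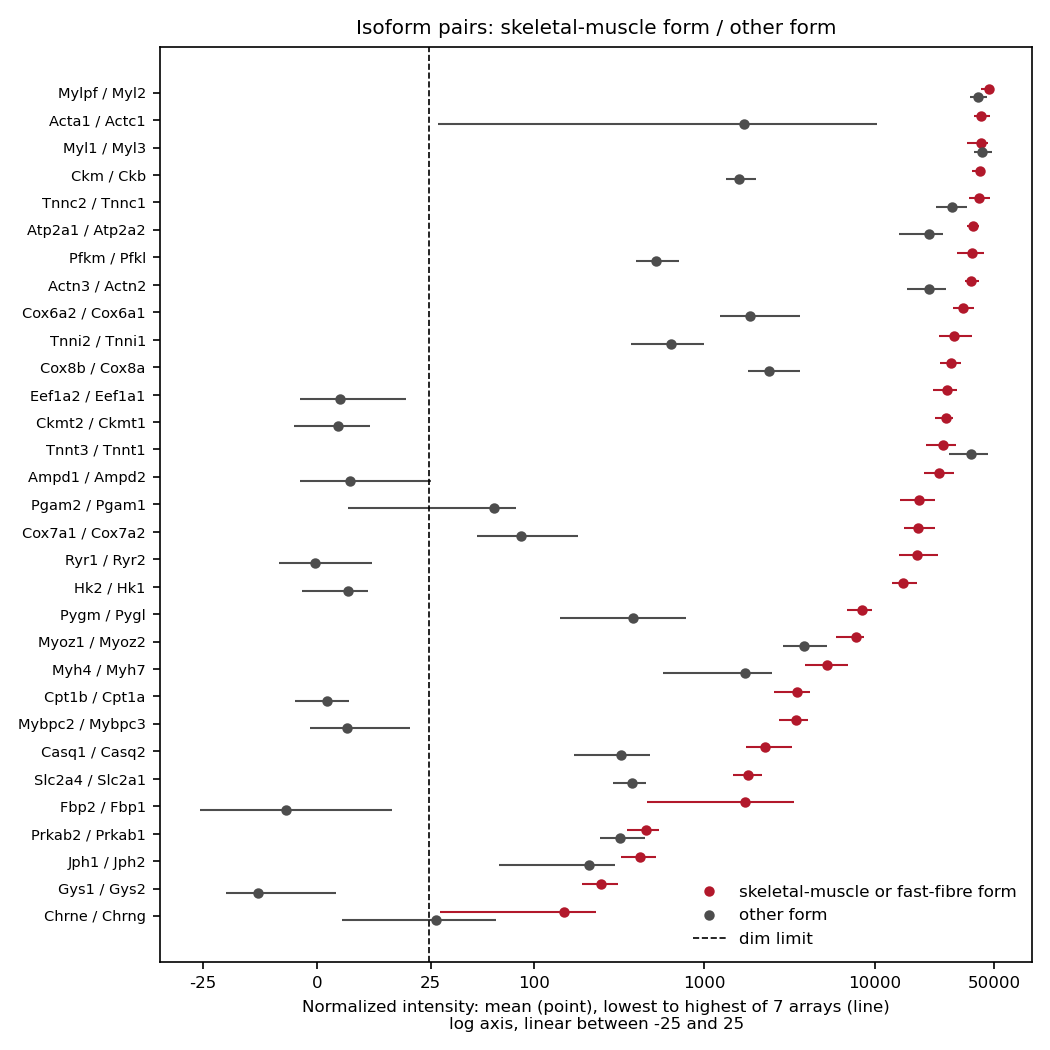
Mean normalized intensity (points) and the lowest to highest of 7 arrays (lines) for the 31 pairs with both forms measured, muscle or fast form in red and the other form in grey, on a symmetric log axis that is linear between -25 and 25. The muscle form lies to the right in 29 pairs, and 8 of the other forms were not detected on any array.

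Probes of the same gene often differed. Of 4777 genes with more than 1 probe, 2452 had their brightest probe detected on all arrays, and in 1081 of these (44.1%) the dimmest probe was detected on 0 arrays. In 797 both the brightest and the dimmest probe were detected on all arrays. The widest gaps in intensity were in Myl1, with means of 41644 and 1945 over its 2 probes, and in Pfkm, with 37136 and 3598 for the brightest and the dimmest of 3. Tpi1 had 32264 and 70.9, Tpm2, a tropomyosin, 31931 and 609, and Adssl1, the muscle adenylosuccinate synthase, 28258 and 1482. Each of these 10 probes was detected on 7 arrays. Several genes of every cell were not detected by their brightest probe, among them Ftl1, the ferritin light chain, Hspa5, an endoplasmic reticulum chaperone, and the ribosomal protein gene Rps23.

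Of 13 skeletal muscle identity markers 12 were detected on all arrays, Myod1 being the exception, and of 11 slow-fibre markers 10. Other cell types of muscle differed in detection. Endothelial markers were detected on all arrays in 15 of 17 cases, with the water channel Aqp1 at 3222 at the lowest, 5212 at the median and 6092 at the highest. Fibroblast and matrix markers had 17 of 20 and mural cell markers 9 of 11. Macrophage markers had 8 of 14, with Lyz1, a lysozyme, at 3885 ± 1370. The related lysozyme gene Lyz2 averaged 563 ± 326, and whether the probe of either reads both was not checked. Mast cell tryptase Tpsb2 was detected on 7 arrays at 161 ± 40.3. Schwann cell and nerve genes had 4 of 14 (28.6%, against 36.7% of all genes), with Mbp, a myelin protein, at 291 at the lowest, 488 at the median and 1355 at the highest. Satellite cell genes had 5 of 11, with Pax7, their defining factor, detected on 0 arrays. Cell division genes had 3 of 15, led by Aurka, a mitotic kinase, at 205 at the lowest, 282 at the median and 733 at the highest, with Top2a, Ccnb2 and Pcna on 0.

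Adipocyte markers had 9 of 15 (60.0%), neutrophil and mast cell genes 3 of 14 (21.4%) and lymphocyte genes 2 of 16 (12.5%), against 36.7% of all genes. Red blood cell genes, with 3 of 7 (42.9%), and tendon genes, with 3 of 8 (37.5%), lay near that share. Membrane channels and pumps had 13 of 17, haem and oxygen genes 6 of 8 and imprinted and long noncoding transcripts 3 of 7.

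Genes of distant tissues were mostly not detected. Of all genes, 36.7% were detected on all arrays and 43.8% on none. Of 12 cardiac genes 2 were detected on all arrays, Myl4 and Myh6, the atrial heavy chain (244 at the lowest, 459 at the median and 685 at the highest), while Nppa, Nppb and Tnni3 were on 0. Of 16 liver genes 2 were, Cyp2e1, an ethanol-oxidising cytochrome P450, and Hnf4a, and albumin (Alb) was on 0. Cyp2e1 was at 4082 in sample 5 and between 543 and 1355 in the other samples. Of 17 brain genes 1 was, Camk2a, a calcium-activated kinase gene whose locus also yields a muscle product, at 2130 at the lowest, 2265 at the median and 2677 at the highest. Of 14 eye and lens genes 1 was, Opn1mw, a cone opsin, at 1333 at the lowest, 1926 at the median and 2780 at the highest by its single probe. Its rank was 923 of 16593, and the other 13 eye genes, photoreceptor genes Gnat1 and Pde6b included, were detected on 1 array at most. The probe's target was not checked, since no probe sequences were used. Testis genes had 1 of 13 (Ddx4, 47.4 ± 23.4), skin and epithelium 2 of 14 (Krt10 and Trp63), and pancreas and gut 0 of 16. Chemosensory genes served as a background for the detection call, since muscle should lack most of them. Of 1053 olfactory receptors 17 (1.61%) were detected on all arrays, the brightest being Olfr724 at 135 ± 30.2. Of 175 vomeronasal and taste receptors 1 was (0.571%) and of 48 defensins 0. A further 120 olfactory receptors, 17 vomeronasal and taste receptors and 4 defensins were detected on 1 to 6 arrays, against 19.5% of all genes. Detection on at least 1 array, the rule for entering the marker levels below, is thus a looser call than detection on all.

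The spread between samples was smaller for brighter genes. Among the 6084 genes detected on all arrays the median SD of log2 intensity over 7 samples was 0.309, and by brightness it was 0.425 in the dimmest of 20 equal bins and 0.19 in the brightest. An SD over 0.5 was found in 945 genes (15.5%), and in 786 of 6220 (12.6%) without samples 4 and 5. After normexp background correction with an offset of 50, which by construction shrinks differences of dim probes, it was found in 288 (4.73%). The sample farthest from the median was sample 2 in 259 of the 945 genes, sample 5 in 215 and sample 4 in 205, against 38 to 106 in each of the others. Steady genes were named by their SD relative to genes of like brightness. Gspt1, a translation termination factor, was the steadiest, at 3484, 3575, 3525, 3366, 3426, 3504 and 3444 in samples 1 to 7. Psmg3, a proteasome assembly chaperone, ranged over 283 to 313, Senp3, a SUMO protease, over 564 to 629, and Rab24, a small GTPase, averaged 562 ± 22.1 (SD, n = 7). Ubtf, the ribosomal DNA transcription factor, Atp6ap2, a proton pump accessory protein, Kat14, Trappc1, Prdx2, a peroxiredoxin, and Sec13 completed the 10.

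Of the 15 most variable genes for their brightness, 6 were highest in sample 4 and 4 in sample 5. Cd52, a surface glycoprotein of lymphocytes, was at 67.2, 85.0, 75.6, 1776, 1011, 84.9 and 83.5 in samples 1 to 7. It was high in samples 4 and 5 and flat elsewhere, and its SD was 2.01, against 0.15 without those samples. Coro1a, an actin regulator of leukocytes, had an SD of 1.51 with and 0.39 without them, Klhl6, a gene of B cells, 1.35 and 0.26, and Cd27, a lymphocyte receptor, 1.62 and 0.52. Cytip, an adaptor of T cells, had 1.49 and 0.69, Serpina1b, a protease inhibitor, 1.33 and 0.5, and Cd74, the class II invariant chain, 1.07 and 0.81. T cell receptor genes followed the same samples. Cd3d was at 1183 in sample 4 and 454 in sample 5, and between -15.6 and -1.38 elsewhere. Cd3e was at 632 and 216, and between 4.89 and 18.1 elsewhere. Trnp1, a nuclear protein of neural progenitors, was detected in the same 2 samples alone, at 1205 and 1344, and between -12.7 and 16.1 elsewhere.

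Other variable genes stood out in other samples. Fmod, the tendon proteoglycan fibromodulin, was at 377, 203, 322, 148, 223, 2034 and 1441 in samples 1 to 7, and Angptl7, a secreted factor, at 512, 580.5, 608, 618, 537, 4485 and 2277. Both were highest in samples 6 and 7, and without these 2 their SDs were 0.54 and 0.12, against 1.46 and 1.25 over all 7. Cidea, a lipid droplet protein of brown fat, was at 328, 95.1, 140.1, 64.2, 1120, 70.9 and 95.6, Sncg, a synuclein of fat and nerve, at 158, 125, 172, 205, 1756, 271 and 337, and Tmem45b at 246, 88.5, 125, 396, 2280, 593 and 421, each highest in sample 5. Their SDs were 1.48, 1.28 and 1.55, and 0.86, 0.59 and 1.15 without samples 4 and 5. Cish, a feedback inhibitor of cytokine signalling, was at 3631 in sample 5 and 4217 in sample 7, and between 591 and 947 elsewhere. Junb, an immediate-early factor, was at 3472 in sample 1 and between 226 and 819.5 in the rest. Insig2, a sterol sensor of the endoplasmic reticulum, was low in samples 2 and 6, at 128 and 119.8, against 611 to 782 elsewhere. Its second probe read 344.8 in sample 2 and 557.9 in sample 6, against 531 to 558 elsewhere, so the low value in sample 6 rested on 1 probe.

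**Figure D4:**
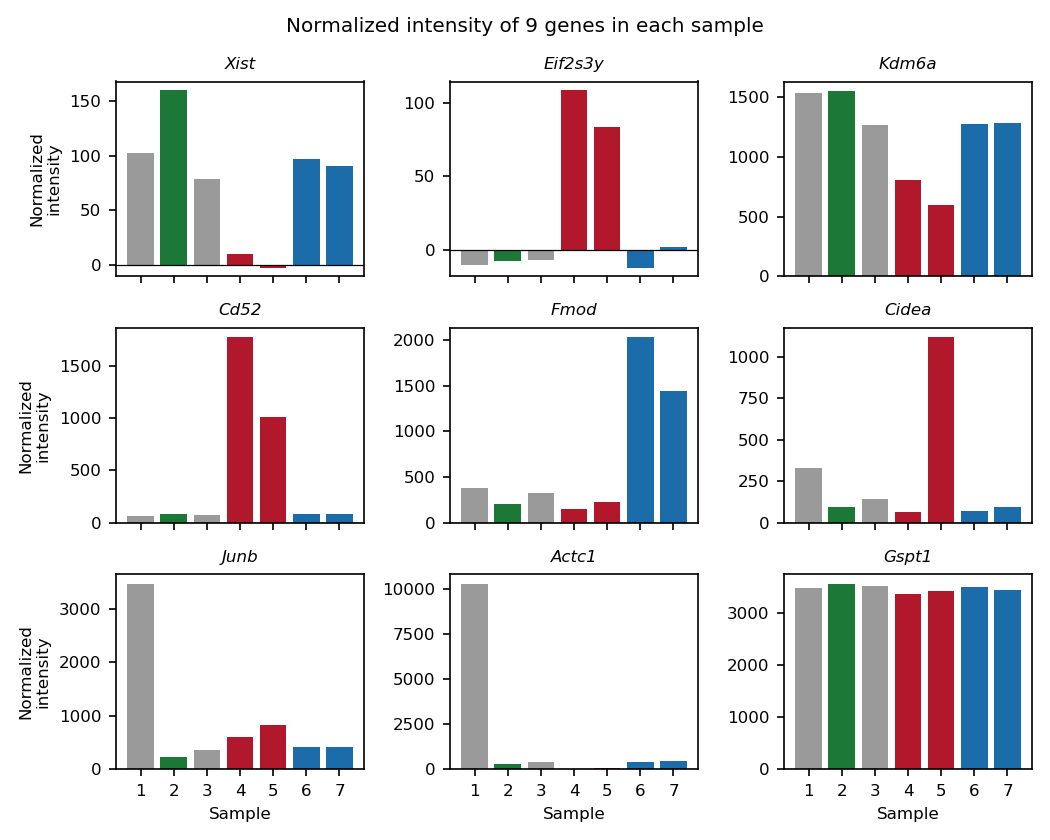
Normalized intensity (bars) of 9 genes in samples 1 to 7, on a linear axis for each gene. Xist and Kdm6a are low and Eif2s3y and Cd52 high in samples 4 and 5 (red), Fmod is high in samples 6 and 7 (blue), Cidea in sample 5, Junb and Actc1 in sample 1, and Gspt1 is level (sample 2 in green, samples 1 and 3 in grey).

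A further 18 genes were detected on 1 to 6 arrays although at least 1 array lay above 500, and 11 of them were highest in sample 4 or 5. Actc1, the cardiac actin that adult muscle retains at a low level, was at 10314, 294, 419.9, 27.4, 47.8, 389 and 467 in samples 1 to 7. Its second probe read 151.7 in sample 1, within the 121.2 to 159.0 of samples 2, 3, 6 and 7, so the high value of sample 1 rested on 1 probe. Both probes were low in samples 4 and 5, where the second read -3.98 and 11.6. Sspn, a member of the dystrophin complex, was at 4788, 6.48, -19.4, 2090, -12.4, 1926 and 1587, detected in samples 1, 4, 6 and 7 and not in samples 2, 3 and 5. Pdrg1 was between 712 and 1193 in samples 1 to 4 and at 5.08 or less in samples 5 to 7, Cops8, a signalosome subunit, was at -11.4 in sample 2 and -0.3 in sample 6, against 579 to 776 elsewhere, and Tomm22, a mitochondrial import receptor, at 3.06 in sample 7, against 569 to 1418. H2-Eb1, a class II histocompatibility gene, was at 663 in sample 5 and at 38.0 or less elsewhere. Chad, a matrix protein of tendon and cartilage, was at 2203 and 1076 in samples 6 and 7, and at 212.8 or less elsewhere.

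Marker lists for 14 cell types were summarised in each sample as the mean log2 deviation of their members from the 7-sample mean. The skeletal muscle identity list (12 genes used) spanned 0.12. As 9 of its genes ranked among the 100 brightest, where the spread between samples was smallest, this span cannot be set against those of dimmer lists. The lymphocyte list (10 of 16 genes used) was at 2.35 in sample 4 and 1.68 in sample 5, against -0.95 to -0.73 in the others, and its span of 3.30 became 0.22 without those 2 samples. Its summed intensity over all 16 measured genes was 7227 and 4879 in samples 4 and 5, against 437 to 1266 elsewhere, and Cd4, Cd8a and Ptprc were detected on 0 arrays. The level used members detected on at least 1 array, and only 2 lymphocyte genes were detected on all 7. Cd3d and Cd3e, detected on 2 arrays, entered through the samples where they were high, so the level and span follow in part from the choice of members. Tendon markers (7 genes) were at 1.43 in sample 6 and 1.06 in sample 7, against -0.96 to -0.18, and their span of 2.39 became 1.87 without samples 4 and 5. Not every tendon gene followed these samples. Scx, a tenocyte gene detected on 7 arrays, was highest in sample 3, at 325, and was at 193 in sample 6 and lowest in sample 7, at 161. Adipocyte markers (12 genes) were at 1.38 in sample 5, against -0.61 to 0.15, and their span of 1.985 became 0.75 without samples 4 and 5. Of the 15 adipocyte genes measured, 3 were detected on 0 arrays and did not enter, and 3 that entered were detected on some arrays only. Over the members detected on all arrays the span was 1.87, with sample 5 highest. Macrophage markers spanned 1.19, from -0.62 in sample 3 to 0.57 in sample 7. Their summed intensity was 7940 to 8936 in samples 4 to 7, with sample 5 highest, against 4175 to 4672 in samples 1 to 3. Lyz1 weighed heavily in this sum. It alone read 4148 to 5446 in samples 4 to 7 and 2400 to 2650 in samples 1 to 3. Granulocyte and mast cell markers spanned 1.05, with sample 7 highest, and both spans were the same without samples 4 and 5. These 5 lists were the ones that spanned over 1 log2 unit, and 3 of them did so without samples 4 and 5. Slow-fibre markers (10 genes) were lowest in sample 5, at -0.47, and their span of 0.73 became 0.31 without samples 4 and 5. Thick filament genes were at -0.30 and -0.47 in samples 4 and 5, against 0.06 to 0.28 elsewhere, but their summed intensity of 196190 and 179210 lay within the 178430 to 198110 of the others. In the same samples thin filament genes were at -0.37 and -0.29, calcium genes at -0.26 and -0.23, and Z-disc and M-band genes at 0.003 and -0.05. The calcium gene sums of 158320 and 152880 lay below the 178560 to 182360 of the others. Complex I genes were at -0.30 in sample 1, against -0.06 to 0.23, and their sum was also lowest there. Sample 1 was lowest as well in complexes II to IV (-0.29), ATP synthase and carriers (-0.26) and cytosolic ribosomal proteins (-0.31). It was highest in other lists, such as thin filament genes (0.30) and immediate-early genes (0.32). Whether the makeup of a sample moves the levels of fibre genes was not tested.

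**Figure D5:**
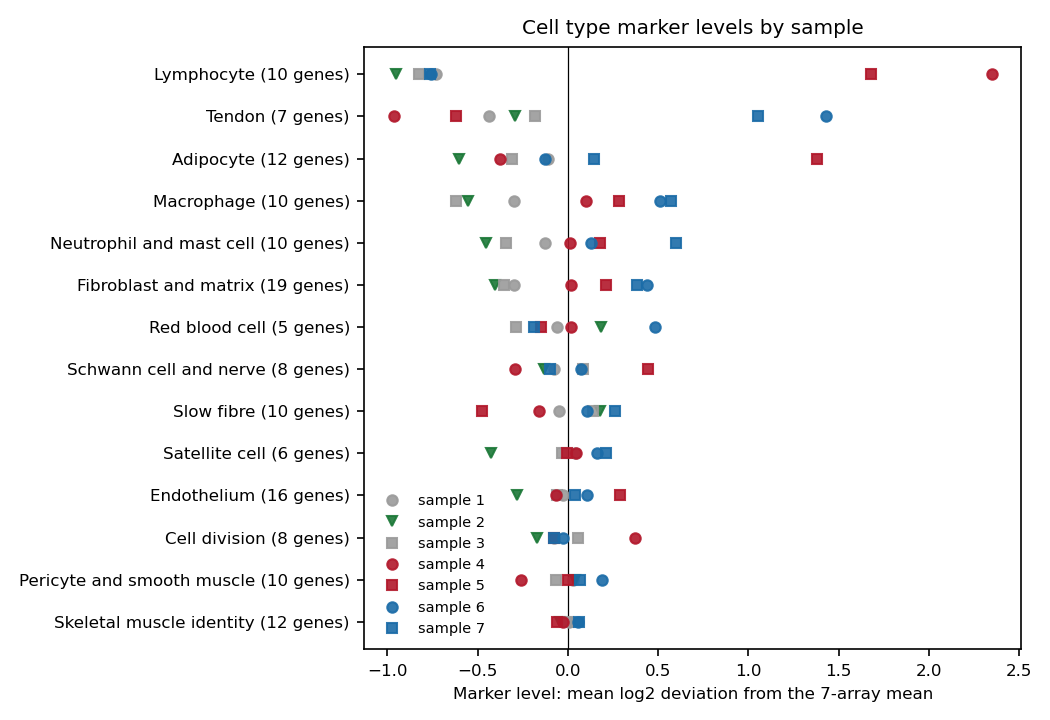
Marker level of 14 cell type lists in each of 7 samples (points, number of genes used in parentheses), as the mean log2 deviation from the 7-sample mean. The genes used were those detected on at least 1 array. Lymphocyte markers are high in samples 4 and 5 (2.35 and 1.68), tendon markers in samples 6 and 7 (1.43 and 1.06) and adipocyte markers in sample 5 (1.38), while the skeletal muscle identity list, whose genes are mostly among the 100 brightest, spans 0.12.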

How the data were processed

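Total RNA was amplified with T7 RNA polymerase and biotinylated for 1 bead array per sample, per the labels' protocols. The deposited values are normalized probe intensity on a linear scale. They reached from -36.1 to 50215 with 27.2% of values below 0, and the 7 columns had nearly the same distribution. The submitters' processing notes name R 3.1.2, lumi 3.0 and limma 3.1. The authors also deposited non-normalized intensity, with a detection p-value beside each intensity, per the file headers. Not given in the sources used here is the scanner software. The first 7 columns of that table were matched to the samples through the sample numbers in the labels, and each normalized column had a Spearman correlation of 1.0 with its own non-normalized column, and at most 0.931 with another. The other 21 intensity and 21 detection columns of it, and 21 columns of the normalized table, were not used.

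Python 3.11.15 with pandas 2.3.3 and numpy 2.4.6 was used for the ranks, counts and spreads, and matplotlib 3.10.9 for the figures. The spread is the SD of log2 intensity over 7 arrays among genes detected on all of them. Its size relative to the median of 20 brightness bins ranked steady and variable genes. Marker levels used list members detected on at least 1 array, with intensities raised to the dim limit of 24.5. That limit is the median intensity of probes with a detection p-value within 10% of 0.05, pooled over the 7 arrays. As 1 limit served all arrays, undetected values above it were used as read. Alternatives used limma 3.58.1 in R 4.3.3 (normexp with an offset of 50, and neqc), a detection p-value of 0.01, other probe rules and left-out samples. The spread ranking was tested on simulated data.

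The members, the 57 gene lists and the 40 isoform pairs were chosen with earlier results of these data known. The 325 named genes are the 30 brightest, the 4 brightest and the dimmest of each list, distant-tissue genes detected on all arrays, the isoform pairs, the 15 most and 10 least variable genes and the 5 widest probe gaps. Further genes named as not detected, on a few arrays or by sex linkage, the 18 genes above 500 on some arrays, the members entering the marker levels, the omission of samples 4 and 5, and the promoter motifs and windows were chosen after values were seen. No groups were compared and no p-value was computed beyond the deposited detection p. Dixon's rule for a sample that lies apart was applied to named genes and marker lists, and 7 arrays limit the precision.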

Additional observations from a re-analysis of the deposited data

Results flagged for a closer look

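In each of the results named here the highest or lowest sample lay apart from the other 6 by more than Dixon's 95% critical value for 7 samples, 0.568 of the whole range. Chance flags about 1 in 20 groups, or 5%. Here 34 of 256 named genes and 3 of 14 marker lists stood apart. The named genes include those chosen for a large or a small spread. List members entered through detection on at least 1 array, a rule settled after values were seen. Neither share can therefore be read against that 5%. Sample 2, the dimmest array before normalization, accounted for 14 of the 37, sample 5 for 7, sample 1 for 6, sample 4 for 5, samples 3 and 7 for 2 each and sample 6 for 1. No explanation was tested.

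Sample 5 had the highest adipocyte marker level, 1.38, and the highest values of Cidea (1120), Sncg (1756), Tmem45b (2280), Cyp2e1 (4082), the myelin gene Mbp (1355) and the oxidase subunit Cox6a1 (3615). Sample 4 had the highest cell division marker level, 0.373, and the highest Cd3d (1183), Cd3e (632), Klhl6 (1358) and Acadm, a fatty acid dehydrogenase (15587). The summed intensity of cell division genes was instead highest in sample 3, at 1018, against 729 in sample 4. Over members detected on all arrays, the cell division level was also highest in sample 3. Cd3d, Cd3e and Klhl6 were also high in sample 5. Samples 4 and 5 are those in which Xist and Eif2s3y went against the label for sex.

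Sample 1 was highest in the immediate-early gene Junb (3472), in Irs2, an insulin receptor substrate (3140), in Nfil3, a clock output repressor (4599), in Actc1 (10314, by 1 of 2 probes) and in Ubtf (399), and lowest in the pancreatic gene Reg1 (4.73), which was detected on 1 array. Sample 2 had the lowest satellite cell marker level, -0.423, and the lowest Sdc4, a syndecan (347), and Pgam1, a phosphoglycerate mutase (6.72). It was highest in Asb2 (25947), Hoxc9 (1702), Mrps24 (13126), Psma2 (11218) and Uqcr10 (35821), and in the dim probes of Akap4 (57.6), Dazl (121.8), Defb36 (47.5), Vmn1r45 (102.7), Vmn1r62 (135.1) and Vmn2r81 (95.4), genes of testis, defence and pheromone sensing.

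Sample 3 was highest in Aurka (733) and Serpina1a (40.5), sample 6 in Prdx2 (7947) and sample 7 in the mast cell gene Cpa3 (222). Sample 7 was lowest in Mrpl23 (6211). The Prdx2 and Ubtf values lie in genes chosen for a small spread.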

How the results depend on the processing

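The number of genes with an SD over 0.5 was the result that depended most on the processing. It was 945 of 6084, but 288 (4.73%) after normexp with an offset of 50, which by construction shrinks differences of dim probes. It was 648 with neqc, 631 of 5348 at a detection p under 0.01, and 886 to 1099 when 1 sample was left out, with 931 without sample 2. Marker lists spanning over 1 log2 unit numbered 5, 4 with neqc and 4 over members detected on all arrays, and 3 without samples 4 and 5. With neqc the highest sample was the same in 14 of 14 lists, and over members detected on all arrays in 11 of 13. The exceptions were macrophage markers, highest in sample 6 instead of 7, and cell division markers, highest in sample 3 instead of 4. Lymphocytes had too few such members. Genes detected on all arrays numbered 5348 at a detection p under 0.01, 6139 by any probe, and 6099 to 6568 with 1 sample left out, the highest without sample 2. Of the 100 brightest genes, 98 were shared with a ranking by the median, 99 with non-normalized intensity, 83 with the mean of all probes and 99 to 100 with 1 sample left out. Among 325 named genes the brightness percentile moved by more than its spread between arrays in 12 by the median, 0 by non-normalized intensity and 107 by the mean of all probes. Detection was limited on sample 2, the dimmest array. No paired analysis was possible because 1 group was described and no groups were compared.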
